A study of Bos taurus with 15 samples.

Results

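Transcripts of 39 zinc finger, homeobox, forkhead, Krüppel-like and histone demethylase genes were followed in single oocytes from bovine dominant follicles (DF). These genes are the rows of the count file, among 21218 Ensembl genes, whose symbol begins with ZNF, ZBTB, ZSCAN, ZFP, SOX, FOX, HOX, KLF, GATA, TBX or KDM. Symbols were taken from the study's list of genes that differed between DF oocytes and oocytes larger than 120 μm, because the count file carries identifiers only, so genes of these families outside that list could not be named. The list places 16 of the 39 genes higher in DF oocytes and 23 higher in >120 μm oocytes. It was made with 11 of the oocytes described here, so a high level in the 16 or a low level in the 23 is part of how they were chosen and was not tested. By prefix, 22 genes were ZNF, 8 ZBTB, 3 KDM and 2 FOX, with 1 each of ZSCAN, ZFP, HOX and KLF and 0 of SOX, GATA and TBX. HOXD3 was the only homeobox gene among them, so the set is in the main one of zinc finger proteins. ZBTB8OS carries its name only from lying opposite ZBTB8 and encodes archease, a cofactor of transfer RNA ligation, and ZFPL1 encodes a membrane protein of the Golgi.

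Zinc finger proteins of the C2H2 class bind DNA, or in some cases RNA, through small loops held by a zinc ion, and they form the most numerous class of transcription factors in mammals. Many carry a second domain (KRAB, BTB or SCAN) through which they recruit corepressors or pair with each other. The growing oocyte fills its cytoplasm with maternal transcripts, and its own transcription declines as growth is completed.

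The animals were nulliparous crossbred beef heifers, most of Limousin or Charolais crosses, whose cycles had been synchronized with a GnRH analogue, a progesterone device and prostaglandin, with no ovarian stimulation. The paper took its DF oocytes from 2 earlier animal trials. The labels do not say which oocyte came from which trial, so trial and time of collection could not be told apart. Each of the 15 oocytes came from a different animal. They were collected 24 h before ovulation (T1, n = 6), 19-23 h after oestrus was detected (T2, n = 4) or 2 h before ovulation (T3, n = 5). Slaughter was on day 9 of the protocol for T1 and on day 10 for T2 and T3. A subgroup had been given a second dose of GnRH, which the study's methods place beside the time 2 h before ovulation. Their wording does not settle whether the T2 heifers also had it, so this dose and the time cannot be told apart. The titles of the T2 samples say before ovulation, against their other labels, which were followed. Oocytes were freed of cumulus cells and frozen singly, and their polyadenylated RNA was sequenced with Smart-seq2.

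The study kept 11 oocytes (5 at T1, 4 at T2 and 2 at T3), with total counts from 824854 to 4894970. Left out were T1.4 with 2874041 counts and 3 of the T3 oocytes, T3.5 with 175263, T3.3 with 271763 and T3.1 with 620910, which are given apart throughout. The 10 most abundant genes of an oocyte took 4.85% to 5.91% of its counts at T2, 4.63% to 17.1% in the kept T1 oocytes and 12.3% to 12.8% in the kept T3 oocytes, and 29.8% and 27.3% in T3.1 and T3.5. Of 14 oocyte markers, the 4 that could be named (NLRP5, OOSP2, FIGLA and KPNA7) had counts in every oocyte, apart from 0 for NLRP5 in T3.1. Of 15 cumulus and granulosa markers only STAR could be named, with 142 to 1042 counts in the kept oocytes, and of 8 leukocyte and 5 erythrocyte markers none. Reads were not tagged with molecular identifiers, so floors and expected counts given here cover counting error only.

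The 39 genes together took a small part of each library, from 0.109% of counts in T1.2 to 0.377% in T3.3. Levels are given as CPM, the count relative to the total of the library, after scaling by the trimmed mean of M values (TMM) over the 15 oocytes, or as log2 CPM with a prior count of 2, on which scale a gene with no count shows as -0.06. A CPM of 1 gene cannot be set against that of another, since a longer transcript yields more reads, so each gene is compared with itself between oocytes. In the 16 genes listed as higher in DF oocytes the median log2 CPM of an oocyte was 6.64 ± 0.69 at T1 (SD, n = 5), 6.72 ± 0.22 at T2 (SD, n = 4) and 6.36 ± 0.09 at T3 (SD, n = 2), beside 6.75 ± 0.30, 6.55 ± 0.22 and 7.18 ± 0.26 over all 790 genes so listed. In the 23 genes listed as higher in >120 μm oocytes it was 1.88 ± 1.61 at T1, 2.4 ± 0.31 at T2 and, with a count in 11 and 9 of the 23 genes, -0.06 in both T3 oocytes. The same median over all 1039 genes listed as higher in >120 μm oocytes was 2.86 ± 0.82, 2.72 ± 0.08 and 1.54 ± 0.53. The level of the 23 was therefore even among the T2 oocytes and uneven at T1, where T1.2 was at -0.06 and T1.1 at 0.35 while T1.3, T1.5 and T1.6 were at 2.70 to 3.23. Among the oocytes not kept it was -0.06 in T1.4, T3.1 and T3.5 and 2.38 in T3.3, where a single count already amounts to that value.

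**Figure D1:**
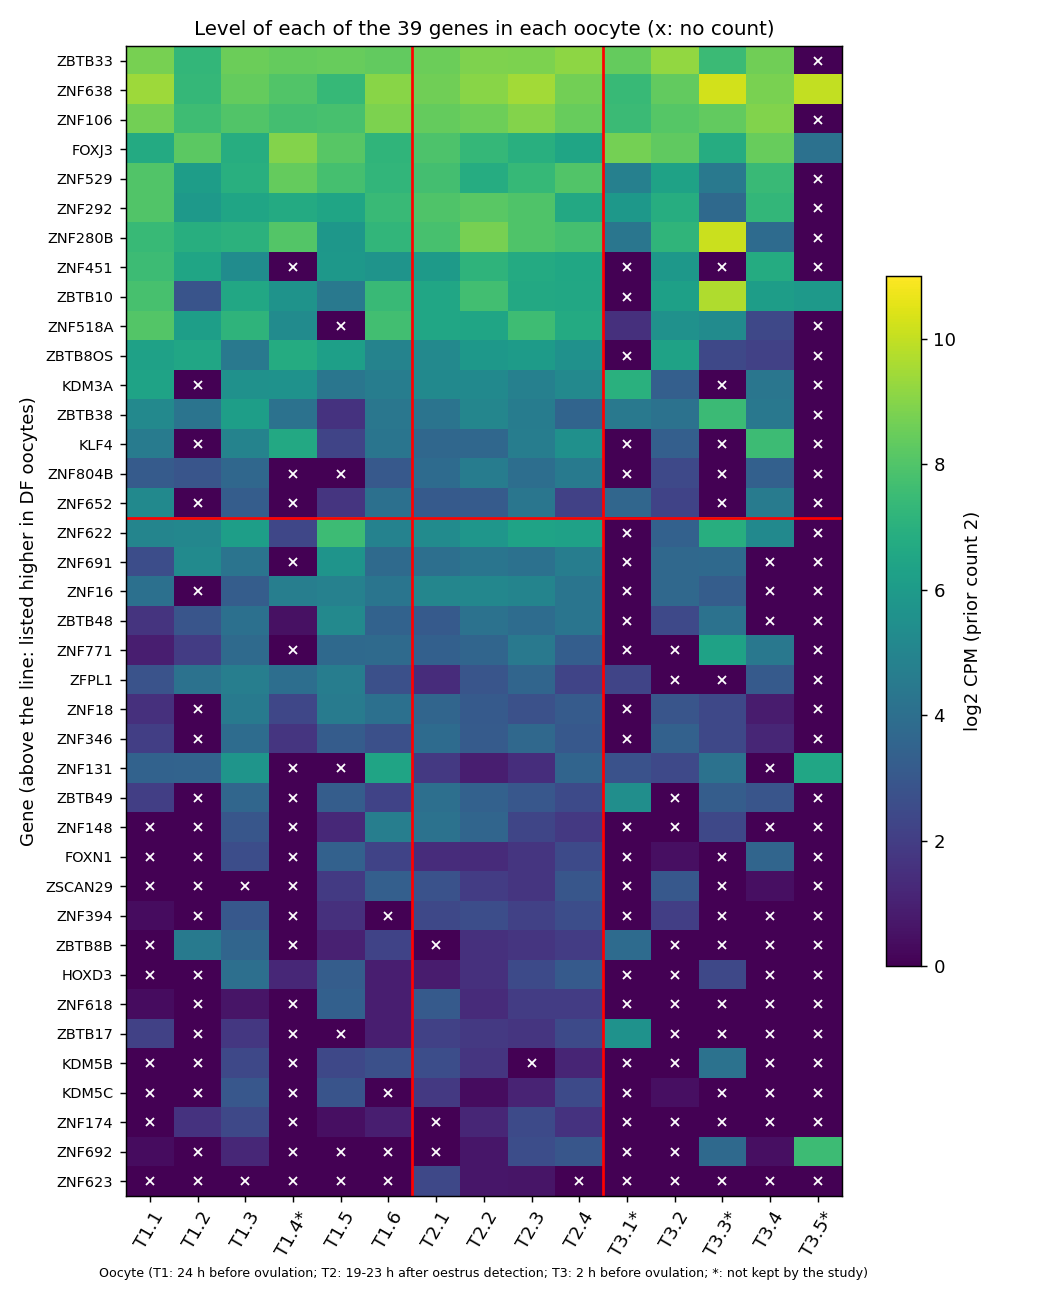
Heat map of log2 CPM (prior count 2) of the 39 genes (rows, ordered by mean level in the 11 kept oocytes) in 15 oocytes (columns); a cross marks 0 counts, an asterisk an oocyte not kept by the study, and the horizontal line parts the 16 genes listed as higher in DF oocytes (above) from the 23 listed as higher in >120 μm oocytes. Crosses gather in the lower block, in T1.1, T1.2, T1.4 and the T3 oocytes, and are few at T2.

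The 3 time points were compared gene by gene in the 11 kept oocytes with the quasi-likelihood test of edgeR, which 37 of the 39 genes entered. ZBTB17 and ZNF623 were removed by the filter on low counts. With thresholds of 0.05 on the adjusted p and 1.5 on the size of the log2 fold change, 0 of 37 genes were called between T2 and T1, between T3 and T2 or between T3 and T1, and the share called among all 10198 genes tested was 0 in each. The smallest adjusted p among the 37 genes was 0.419, 0.222 and 0.471 in these comparisons. At an unadjusted p of 0.05, 0 of 37 passed between T2 and T1 (12.2% of all genes tested), 3 between T3 and T2, all lower at T3 (8.24% lower and 17.3% in either direction among all genes), and 4 between T3 and T1 (9.09% among all genes), of which 3 were lower at T3 (7.47%) and 1 higher (1.62%). These shares lie near or below those of all genes. The likelihood ratio test of edgeR called 0 of 37 genes in each comparison, against 3.54%, 6.87% and 1.36% of all genes tested, and DESeq2 called 0, 1 and 0 of 39, against 3.27%, 6.37% and 2.44%.

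The median log2 fold change over the 37 genes was 0.22 between T2 and T1, with 20 genes above 0 and 17 below, beside -0.20 over all genes tested. Between T3 and T2 it was -1.11, with 6 genes above 0 and 31 below, beside -0.10 over all genes. Between T3 and T1 it was -0.63, with 11 above and 26 below, beside -0.21. These medians turned on single oocytes. The first was 0.002 without T2.2, 0.02 without T2.4 and 0.06 without T1.2, the second -2.95 without T3.2, and the third -1.62 without T3.2 and -1.31 without T3.4, where -0.64, -0.71 and -0.41 were the medians of all genes in the last 3 cases. With at least 10 counts required in every oocyte, which 11 of the genes met, the medians were 0.14, -0.30 and -0.05. The T3 values came mainly from the 23 genes listed as higher in >120 μm oocytes, whose tested members had a median of -1.58 between T3 and T2 and -2.04 between T3 and T1 with median SEs of 1.81 and 1.87. The 16 genes listed as higher in DF oocytes had medians of -0.33 and -0.01, with median SEs of 0.85 and 0.80. Both lists were made with the kept T3 oocytes, and medians over all 1039 and 790 genes so listed were not computed. The gap to all genes tested is therefore not read as particular to the 37 genes. T3 rested on 2 oocytes, and the T2 oocytes serve in 2 of the comparisons, as do those of T1 and T3. STAR, the named cumulus and granulosa transcript, was also lower at T3 than at T2 in the same fit, by a log2 fold change of -1.27 ± 0.59 (SE, adjusted p = 0.284), and its part in these values was not tested.

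**Figure D2:**
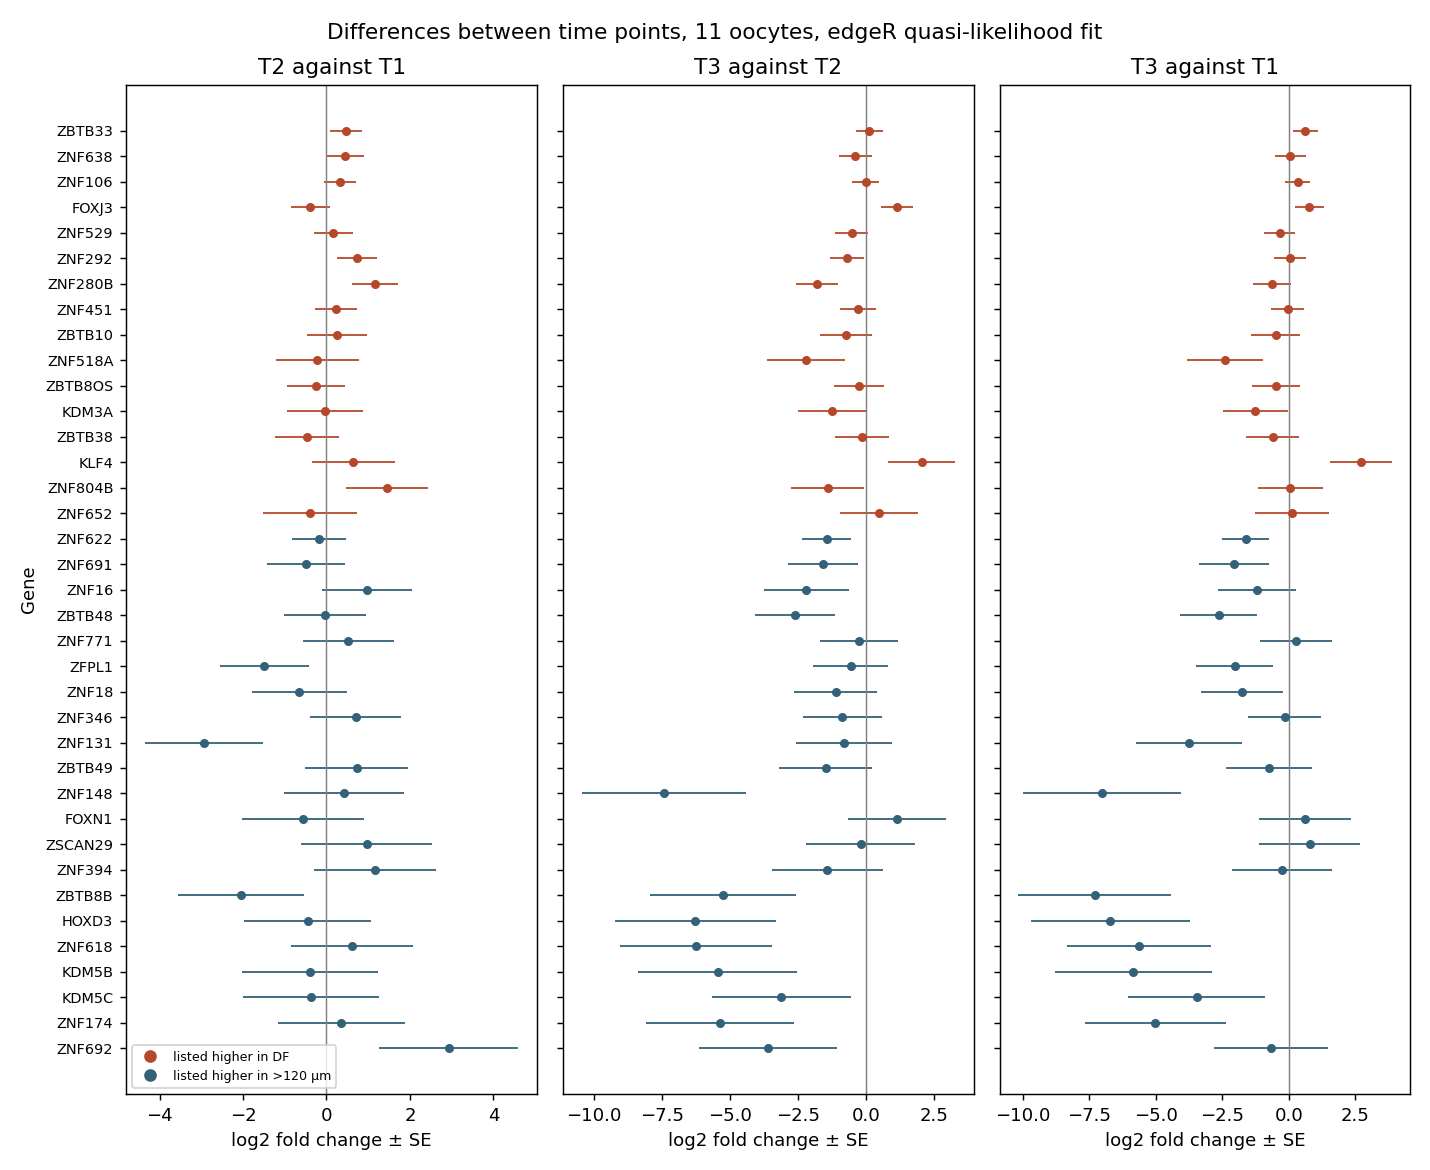
Log2 fold change with its SE (x axis, a scale of its own in each panel) for the 37 genes tested (y axis), between T2 and T1, T3 and T2, and T3 and T1, in 11 oocytes. The bars of the genes listed as higher in DF oocytes are the shorter ones in the median (SE 0.85 and 0.80 in both T3 panels, against 1.81 and 1.87), though KDM3A, KLF4, ZNF518A, ZNF652 and ZNF804B have SEs over 1 in both, and genes with fold changes beyond -4 at T3 have 0 counts in both kept T3 oocytes.

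Groups were also compared by whether their oocytes overlapped. ZNF280B and ZNF804B were higher in all 4 T2 oocytes than in the 5 kept T1 oocytes (2 of 37, against 2.02% of all genes tested), and with T1.4 added ZNF804B alone stayed apart (1.6% of all genes). FOXJ3 was higher in both kept T3 oocytes than in every T2 oocyte (1 of 37, against 16.1%) and than in every kept T1 oocyte (3.79%). Lower in both kept T3 oocytes than in every T2 oocyte were 13 of 37 genes (35.1%), against 19.3% of all genes tested. They were HOXD3, KDM3A, ZBTB10, ZBTB48, ZNF148, ZNF16, ZNF280B, ZNF394, ZNF518A, ZNF618, ZNF622, ZNF691 and ZNF804B. With all 5 T3 oocytes 6 of them remained below every T2 oocyte (9.35% of all genes), namely ZNF16, ZNF394, ZNF518A, ZNF618, ZNF691 and ZNF804B. Of the 37 genes, 21 were listed as higher in >120 μm oocytes. That list was made with both kept T3 oocytes, so low values there are part of how these genes were chosen. HOXD3, ZNF148 and ZNF618, with 0 counts in both, passed the filter through the other oocytes. The share over all genes so listed was not computed, so the excess over all genes tested is not read as a result. Between T3 and T1, 0 of 37 were lower in both kept T3 oocytes than in every kept T1 oocyte (5.17%). No member was lower in every T2 oocyte than in the kept T1 oocytes (2.33%).

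The BTB zinc fingers pair through their BTB domain, and several repress transcription through corepressors. Of the 8 measured, ZBTB33, ZBTB38 and ZBTB10 had counts in each of the 11 kept oocytes and ZBTB8B, ZBTB17, ZBTB48, ZBTB49 and ZNF131 did not. ZBTB33, known as Kaiso, which binds methylated CpG sites, stood at 431, 154, 372, 346 and 329 CPM in T1.1, T1.2, T1.3, T1.5 and T1.6, at 364, 471, 459 and 552 in T2.1 to T2.4 and at 596 and 394 in T3.2 and T3.4. The oocytes of the 3 time points overlapped, T1.2 was the lowest, and in the oocytes not kept ZBTB33 was at 334, 333, 182 and 0 CPM (T1.4, then T3.1, T3.3, T3.5). Its log2 fold change was 0.48 ± 0.38 (SE) between T2 and T1, with a 95% interval from -0.34 to 1.29, and 0.61 ± 0.47 between T3 and T1 (adjusted p of 0.709 and 0.754). ZBTB38, another reader of methylated DNA, had 35, 17.8, 70.5, 2.11 and 19.4 CPM at T1, 17.8, 32.1, 23.6 and 10.6 at T2 and 16.9 and 20.5 at T3. The groups overlapped, with T1.5 the lowest and T1.3 the highest. Among the oocytes not kept, T3.3 reached 182 CPM on 43 counts while T1.4 and T3.1 were at 16.6 and 21.2 and T3.5 at 0.

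ZBTB10 was measured at 220.5, 6.2, 96, 20.9 and 175 CPM at T1, 90.1, 203, 97.8 and 97.2 at T2 and 75.5 and 68 at T3. T1.2 and T1.5 lay below all other kept oocytes and T1.1 above them, and 194 counts in T3.3 made 821 CPM, the most in any oocyte. ZNF131, a BTB protein in spite of its name, had 32, 25, 188, 0 and 91 counts in the kept T1 oocytes, 3, 3, 3 and 25 at T2 and 11 and 0 at T3. T1.3 and T1.6 were high while T1.5, the deepest library, had none, and the log2 fold change between T2 and T1 was -2.94 ± 1.41 (SE, adjusted p = 0.424). In T3.5, the smallest library, 22 counts of ZNF131 made 89.6 CPM. ZBTB8B had 0, 52, 40, 5 and 4 counts at T1, 0, 6, 4 and 7 at T2 and 0 and 0 at T3. Of the 101 counts at T1, T1.2 and T1.3 held nearly all, so the groups overlapped. With the kept T3 oocytes at 0, the pooled T1 level of ZBTB8B was at least 10.9-fold above a floor of 3 counts over T3. The edgeR log2 fold change was -7.3 ± 2.87 (SE, unadjusted p = 0.0227, adjusted p = 0.471). Each p beside a later bound likewise belongs to the edgeR fold change. T1.1 also had 0, where 14.97 counts would be expected from the other kept oocytes, against 11.4 in T3.2 and 10.7 in T3.4. These zeros therefore do not mark T3. The >120 μm list was made with both kept T3 oocytes, so 0 counts there are part of how such genes were chosen. Bounds against T3 are not read as a decline. Without T1.2 the bound was 6.28-fold. Leaving out T3.2 or T3.4 lowers this and each later bound against T3 by 2.07 or 1.94 times, since the floor then rests on 1 library. T3.1, which was not kept, had 7 counts of ZBTB8B, and with all 15 oocytes the log2 fold change between T3 and T1 was -1.22 (adjusted p = 0.865).

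ZBTB48, a protein that binds telomeres, was seen in each T1 and T2 oocyte, with 7 to 165 counts at T1 among kept oocytes. It had 9 to 52 counts at T2, 11 in T3.2 and 0 in T3.4, where 35.6 would be expected from the other 10 kept oocytes. Among the oocytes not kept, it had 1 count in T1.4, 4 in T3.3 and 0 in T3.1 and T3.5. Its log2 fold change was -2.61 ± 1.47 (SE) between T3 and T2 and -2.64 ± 1.45 between T3 and T1, with adjusted p of 0.382 and 0.586. ZBTB49 had 4 to 41 counts in T1.1, T1.3, T1.5 and T1.6, 11 to 30 at T2 and 15 in T3.4, and 0 in T1.2 and T3.2. ZBTB17, known as MIZ-1 and a partner of MYC, was too low to be tested. It had 11, 0, 9, 0 and 1 counts at T1, 4, 8, 4 and 11 at T2 and 0 and 0 at T3, but 25 in T3.1, which alone made 70.8% of the CPM summed over the 15 oocytes.

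Among the other C2H2 zinc fingers, ZNF280B was the gene with the smallest p between T2 and T1. It was at 168, 118, 132, 56.5 and 149.6 CPM at T1, 221, 434, 253 and 216 at T2 and 146 and 13.3 at T3. The 4 T2 oocytes all lay above the kept T1 and T3 oocytes, with T3.4 the lowest. The log2 fold change was 1.15 ± 0.55 (SE, unadjusted p = 0.0526, adjusted p = 0.419) between T2 and T1 and -1.78 ± 0.78 (unadjusted p = 0.0362, adjusted p = 0.251) between T3 and T2. The second value rested much on T3.4, since it was -0.99 without that oocyte and -4.51 without T3.2. Of the oocytes not kept, T3.1 and T3.5 lay below every T2 oocyte at 19.2 and 0 CPM, while T3.3 stood at 1122 and T1.4 at 262. With all 15 oocytes the fold change between T3 and T2 was -0.02 (adjusted p = 0.996).

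ZNF148, also called ZBP-89, a regulator that binds GC-rich promoters, had 0, 0, 24, 7 and 27 counts at T1, 20, 34, 7 and 6 at T2 and 0 and 0 at T3. Every T2 oocyte had counts and T1.1, T1.2 and both kept T3 oocytes had none, so T2 and T3 did not overlap while T1 and T3 did. Pooled over T2 it stood at 7.99 CPM, at least 12.9-fold above the floor of the kept T3 oocytes (unadjusted p = 0.0266, adjusted p = 0.222). DESeq2 gave an adjusted p of 0.043 for this difference, and over the other settings the adjusted p of edgeR ranged from 0.0785 to 0.659. Against T1 it was at least 6.23-fold lower (unadjusted p = 0.0321, adjusted p = 0.507), and 3.59-fold without T1.6. T3.3 had 1 count.

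ZNF618, a partner of the hydroxymethylcytosine reader UHRF2, had 1, 0, 2, 45 and 1 counts at T1, 9, 5, 5 and 7 at T2 and 0 and 0 at T3, and 0 in each oocyte that was not kept. T2 lay above all T3 oocytes, and T1 was at 2 counts or fewer outside T1.5. The pooled T3 level was at least 4.99-fold below that of T2 (unadjusted p = 0.0415, adjusted p = 0.268). ZNF518A showed another arrangement, with 269, 71.1, 140.1, 0 and 203 CPM at T1, 89.2, 86.8, 190.5 and 105 at T2 and 45.8 and 4.28 at T3. T1.5 had no count of this gene although 571.5 counts would be expected there from the other 10 oocytes, and T3.4 had 10 counts. All 5 T3 oocytes lay below all T2 oocytes, with log2 fold changes of -2.19 ± 1.44 (SE, adjusted p = 0.456) against T2 and -2.41 ± 1.44 against T1 (adjusted p = 0.626).

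ZNF804B, the paralogue of ZNF804A, was at 7.87, 6.62, 11.8, 0 and 7.39 CPM at T1, 13.6, 23.8, 15 and 22.1 at T2 and 4.42 and 9.41 at T3, and had 0 counts in the 4 oocytes not kept. It was the gene whose 4 T2 oocytes stood above all 11 others, at a log2 fold change of 1.46 ± 0.98 (SE, adjusted p = 0.628) against T1. ZNF292 had counts in all 11 kept oocytes, between 58.3 and 294 CPM, and ZNF16 in all but T1.2 and T3.4. ZNF691 lacked counts in T3.4 only among these 11, and ZNF652, which represses transcription with CBFA2T3, in T1.2 only. ZNF771 was without a count in T3.2, where 27.1 were expected, and had 48 in T3.4. ZNF692 had 34 counts in the 11 kept oocytes together (1, 0, 5, 0 and 0 at T1, 0, 2, 9 and 16 at T2 and 0 and 1 at T3) and 46 in T3.5 alone, a library of 175263 counts. ZNF623 was the rarest, with 5, 2 and 1 counts in T2.1, T2.2 and T2.3 and 0 elsewhere. For T1 this count of 0 allows a pooled level of up to 0.2 CPM, beside a pooled T2 level of 0.955, or 0.416 without T2.1.

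Of the zinc fingers with a SCAN or KRAB domain, which serve pairing and the recruitment of silencing complexes, ZNF529 was the one with counts in every kept oocyte, from 68.2 to 261 CPM. Its log2 fold changes were 0.17 ± 0.46, -0.52 ± 0.60 and -0.35 ± 0.58 (SE) between T2 and T1, T3 and T2, and T3 and T1. ZNF174 had 0, 5, 15, 2 and 1 counts at T1, 0, 4, 8 and 5 at T2 and none in any of the 5 T3 oocytes, a pooled level at least 3.26-fold below T2 and 2.47-fold below T1 (adjusted p of 0.331 and 0.58), the latter 1.13-fold without T1.3. T1 and T2 overlapped. ZNF394 had 5 to 16 counts at T2, 8 in T3.2 and none in the other T3 oocytes. ZSCAN29 was seen in T1.5 and T1.6 only at T1, in each T2 oocyte at 4 to 16 counts and in both kept T3 oocytes at 18 and 1. ZNF18 had 2 to 110 counts in the kept oocytes apart from 0 in T1.2.

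A further 6 genes encode zinc finger proteins whose known work is not, or not only, the control of promoters. ZNF638, a nuclear protein that binds RNA and takes part in silencing, was at 665, 159, 339.9, 162 and 533 CPM at T1, 393, 528, 713 and 399.9 at T2 and 325 and 439 at T3. T1.2 and T1.5 were the lowest and T2.3 the highest of the 11, and the groups overlapped. It was 1 of 2 members with a count in all 15 oocytes (5.41% of the members tested, against 16.6% of all genes tested), and T3.3 and T3.5 had the highest values, 1206 and 1022 CPM. ZNF106, which binds RNA and affects splicing, was at 402, 192, 256, 221 and 459.8 CPM at T1, 337, 381, 492 and 343 at T2 and 276 and 488 at T3, again with overlap. Their log2 fold changes between T3 and T2 were -0.38 ± 0.61 and 0.01 ± 0.50 (SE). The 95% interval for ZNF106 between T2 and T1 ran from -0.50 to 1.14.

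ZNF451, a SUMO ligase, was found in all 11 kept oocytes at 39.9 to 186 CPM and in none of the 4 others. ZNF622, a factor of large ribosomal subunit maturation, was the only gene listed as higher in >120 μm oocytes with a count in each of the 11. It ranged from 24 counts in T3.2 to 869 in T1.5, and its log2 fold change was -1.44 ± 0.89 (SE) between T3 and T2 and -1.62 ± 0.88 between T3 and T1 (adjusted p of 0.426 and 0.583). ZNF346, which binds double-stranded RNA, and ZFPL1 were without a count in T1.2 and in T3.2, respectively. ZFPL1 had 32.9 expected counts there.

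The remaining transcription factors were KLF4, HOXD3, FOXJ3 and FOXN1. KLF4, a Krüppel-like factor of pluripotent cells, was at 23, 0, 29.8, 3.79 and 18.5 CPM at T1, 11.9, 11.9, 24.2 and 45.4 at T2 and 9.24 and 184 at T3. A single oocyte, T3.4, with 429 counts, stood above all others and T3.2 was within the range of T1. The log2 fold change between T3 and T1 was 2.70 ± 1.16 (SE, unadjusted p = 0.0335, adjusted p = 0.512), and without T3.4 it was -0.70 (adjusted p = 0.964). With all 15 oocytes it was 0.47 (adjusted p = 0.945). T1.4, not kept, had the next highest level, 99.9 CPM, and T3.1, T3.3 and T3.5 had 0 counts.

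FOXJ3, a forkhead factor known from muscle and male germ cells, was at 106, 303, 114, 285 and 147 CPM at T1, 240.4, 157, 122 and 87.5 at T2 and 317 and 345 at T3. Both kept T3 oocytes lay above the other 9, closely followed by T1.2 and T1.5. The log2 fold change was 1.16 ± 0.57 (SE, unadjusted p = 0.0615, adjusted p = 0.316) between T3 and T2 and 0.77 ± 0.55 (adjusted p = 0.728) between T3 and T1. The oocytes not kept did not follow this order, with 501 CPM in T1.4 but 16.3 in T3.5, 110 in T3.3 and 410 in T3.1. FOXN1, which governs thymic epithelium, had 0, 0, 18, 46 and 4 counts at T1, 2, 5, 4 and 11 at T2 and 1 and 26 at T3, with T1.5 and T3.4 highest and the groups overlapping.

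HOXD3, a homeobox gene of axial patterning, had 0, 0, 55, 41 and 1 counts at T1, 1, 6, 8 and 18 at T2 and 0 and 0 at T3. T1.3 and T1.5 held 96 of the 97 counts at T1, and T1.1 and T1.2, like both kept T3 oocytes, had none. The pooled level in the kept T3 oocytes was at least 10.4-fold below T1 (unadjusted p = 0.0404, adjusted p = 0.53) and at least 6.34-fold below T2 (adjusted p = 0.293). Without T1.3 the first bound was 5.92-fold, and without T2.4 the second was 4.01-fold. T1.4 had 3 counts and T3.3 had 1.

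**Figure D3:**
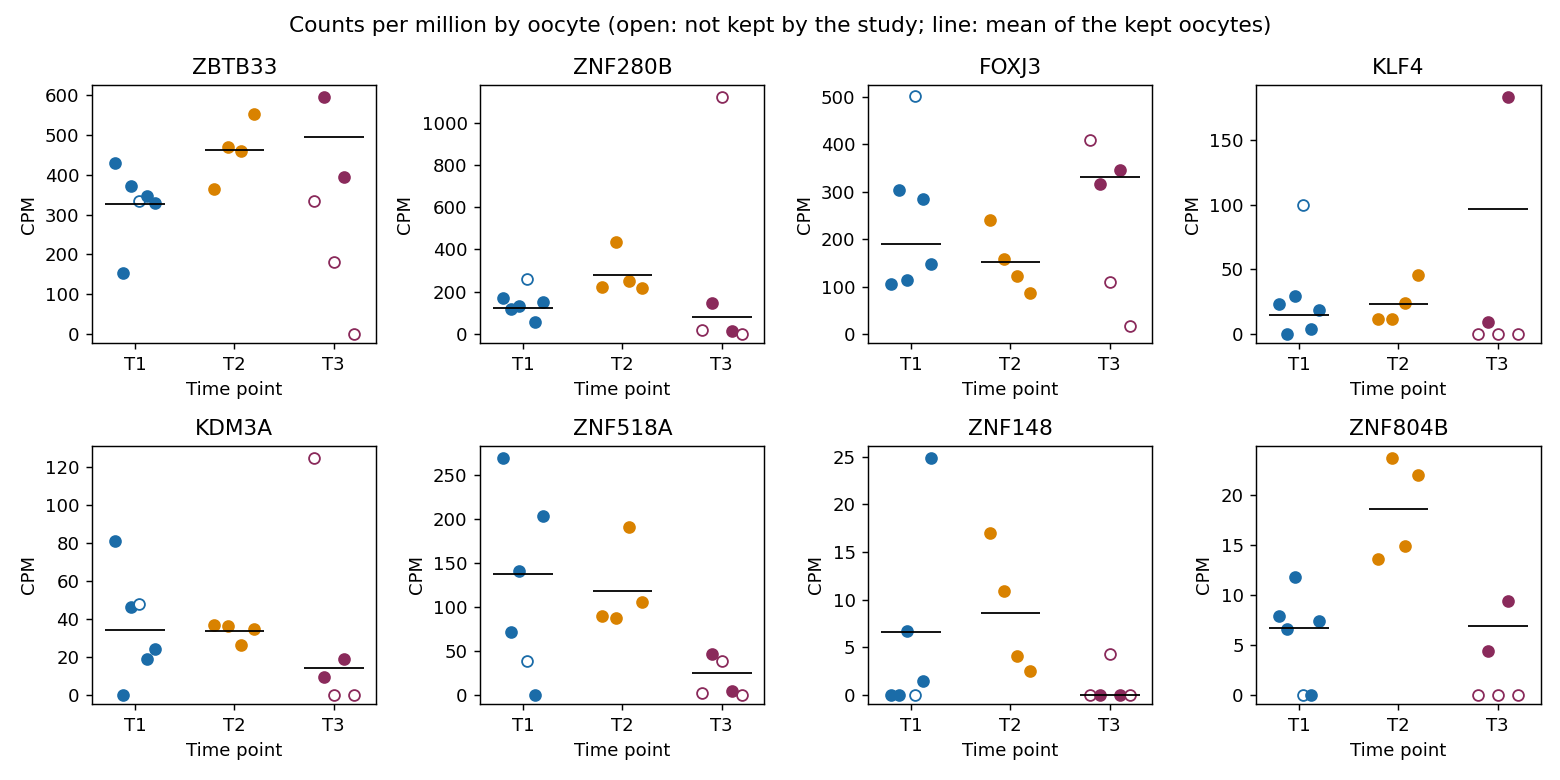
CPM (y axis) of 8 genes in each of 15 oocytes by time point (x axis), with kept oocytes as filled points, those not kept as open points and the mean of the kept oocytes as a line. ZBTB33 lies between 154 and 596 CPM in the kept oocytes and reaches 0 in T3.5, ZNF280B and ZNF804B are higher at T2 than at T1 among kept oocytes, KLF4 at T3 rests on 1 oocyte, and ZNF518A has a kept T1 oocyte at 0.

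Histone demethylases remove methyl groups from histone tails, KDM3A from a lysine of histone H3 linked to silencing and KDM5B and KDM5C from a lysine linked to active promoters. KDM3A, listed as higher in DF oocytes, was at 81.3, 0, 46.3, 19 and 24 CPM at T1, 36.5, 36.3, 26.5 and 34.8 at T2 and 9.24 and 18.8 at T3. T1 spanned the whole range, with 0 counts in T1.2 where 83.5 were expected. T2 lay in a narrow band above both kept T3 oocytes, while T3.1, not kept, was the highest of all at 125 CPM. The log2 fold change between T3 and T2 was -1.23 ± 1.24 (SE, adjusted p = 0.655). KDM5B had 0, 0, 15, 20 and 6 counts at T1, 6, 7, 0 and 3 at T2, 0 and 0 in the kept T3 oocytes and 4 in T3.3. KDM5C had 0, 0, 25, 30 and 0 counts at T1, 3, 1, 2 and 11 at T2 and 1 and 0 at T3, and 0 in each oocyte not kept. Both were listed as higher in >120 μm oocytes, both were detected in T1.3 and T1.5 at 15 to 30 counts and without a count in T1.1 and T1.2, and their groups overlapped in each comparison, at adjusted p of 0.359 and 0.567 between T3 and T2. Of 16 other histone demethylases only JMJD1C could be named, which had counts in each kept oocyte and log2 fold changes of 0.02, 0.59 and 0.60 between T2 and T1, T3 and T2, and T3 and T1.

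ZBTB8OS lies near ZBTB8B on the same chromosome of the RefSeq annotation, and since the strand setting of the counting is not given in the sources used here, reads of overlapping genes on opposite strands could not be parted. ZBTB8OS was at 76.5, 90.6, 21.1, 72.9 and 29.6 CPM at T1, 34.8, 56.9, 65 and 45.9 at T2 and 79.5 and 3.42 at T3. T3.4, with 8 counts, stood below the other 10. T1.2 was the highest kept oocyte for both ZBTB8OS and ZBTB8B (90.6 and 21.5 CPM), and T3.4 had 0 counts of ZBTB8B. T1.1, T2.1 and T3.2, each with 41 or more counts of ZBTB8OS, also had none of ZBTB8B. Whether these genes share reads was not tested.

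Genes that work with these factors could be named only in part, since symbols came from the study's list. Of 18 corepressors of zinc finger proteins 3 were named, and 0 of the 3 passed the test in any comparison at the thresholds above. TASOR, of the HUSH silencing complex, had 763 to 7859 counts in the kept oocytes, ATF7IP, which acts with the SETDB1 histone methyltransferase, had 0 in T1.2 and T3.2, and HDAC3, a histone deacetylase, had 0 in T3.2. Of 20 maternal and oocyte transcription factors FIGLA, NOBOX and TP63 were named, also with 0 passing. FIGLA, the basic helix-loop-helix factor that switches on zona pellucida genes, had log2 fold changes of -2.75 ± 1.01 (SE, adjusted p = 0.2605) between T2 and T1 and 3.00 ± 1.15 (adjusted p = 0.197) between T3 and T2, and TP63 one of -1.86 ± 0.71 (adjusted p = 0.197) between T3 and T2. With under 80% of members named, these lists were read no further.

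Detection was compared at equal depth, as the number of the 39 genes expected to keep at least 1 count if each library were reduced to the same total. At 824854 counts the 11 kept oocytes were expected to show 29.9 ± 6.42 genes at T1 (SD, n = 5), 36.5 ± 0.88 at T2 (SD, n = 4) and 24.1 ± 1.86 at T3 (SD, n = 2). T1.2, with 20.6, was the lowest oocyte and T2.4, with 37.5, the highest. All 4 T2 oocytes (35.6 to 37.5) lay above both T3 oocytes (22.8 and 25.4), and the T1 oocytes, at 26.7, 20.6, 36.3, 31.0 and 35.0, spanned the range between. Over all 21218 genes of the file T2 and T3 were likewise apart, with 9518 to 10123 genes expected at T2 and 8093 and 8792 at T3, and T1.2, with 8078, was again the lowest. As shares, the 37 members tested stood at 79.3%, 94.6% and 65.1% at T1, T2 and T3, and all 10198 genes tested at 86.2%, 89.5% and 78.2%. No test was made, since the genes are not replicates and were chosen from a list made on these oocytes.

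By list, of the 23 genes listed as higher in >120 μm oocytes 65.2% were expected at T1, 89.0% at T2 and 35.4% at T3, beside 78.7%, 86.6% and 55.9% of all 1039 genes so listed. Of the 16 listed as higher in DF oocytes, 93.3%, almost 100% and 99.6% were expected (97.2%, 98.7% and 96.7% of all 790 genes so listed), so that this depth leaves them little room to differ. With all 15 oocytes at 175263 counts both lists were lower at T3, the 16 genes at 87.8%, 97.8% and 65.7% at T1, T2 and T3 and the 23 at 42.5%, 59.7% and 24.3%. For the 16 genes this value at T3 came from the oocytes not kept, T3.1 (63.0%), T3.3 (66.2%) and T3.5 (18.8%), since the kept T3 oocytes averaged 90.3% and the kept T1 oocytes 89.3%. All 790 genes so listed were at 92.1%, 94.96% and 75.9%, and at 94.0% in the kept T3 oocytes. All 1039 genes listed as higher in >120 μm oocytes were at 56.9%, 62.4% and 33.9% at this depth, also lowest at T3. The T1 oocytes with the fewest of the 23 genes were T1.2 (7.63) and T1.1 (10.7), and T1.3 had 20.3. Over all 15 oocytes, at 175263 counts, the 39 genes gave 23.8 ± 6.55 at T1 (SD, n = 6), 29.4 ± 0.85 at T2 (n = 4) and 16.1 ± 6.86 at T3 (n = 5), with T3.5 at 5 genes, namely FOXJ3, ZBTB10, ZNF131, ZNF638 and ZNF692. T2 and T3 oocytes stayed apart at this depth too, T3 reaching at most 21.8 and T2 at least 28.2, as did all genes of the file, with at most 7350 at T3 and at least 7719 at T2. The share of counts taken by the 10 most abundant genes was 4.63% to 5.91% in T1.3, T1.6 and the T2 oocytes and 7.75% to 17.1% in the other kept oocytes, among them T1.5 with 13.0% and more of the 39 genes than T1.1 with 7.75%. Its part in detection was not tested.

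**Figure D4:**
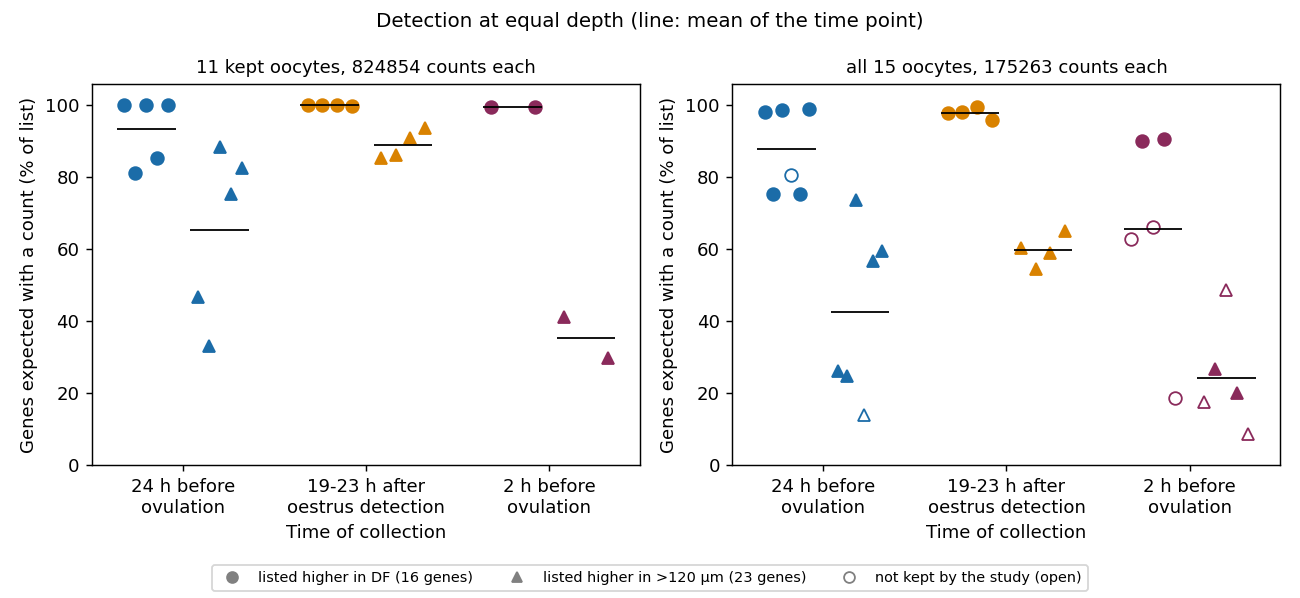
Share of genes expected with at least 1 count (y axis, percent of the list) by time point (x axis), for the 11 kept oocytes at 824854 counts (left) and all 15 at 175263 counts (right), as circles for the 16 genes listed as higher in DF oocytes and triangles for the 23 listed as higher in >120 μm oocytes, with means as lines. Triangles at T2 lie between 85.4% and 93.5% on the left and at T3 at 41.2% and 29.7%.

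At full depth 12 of the 39 genes had a count in each of the 11 kept oocytes, 11 of the 16 listed as higher in DF oocytes and 1 of the 23 others, and these made 32.4% of the 37 genes tested, against 57% of all genes tested. All 4 T2 oocytes had counts of 34 genes, the 5 kept T1 oocytes of 16 and both kept T3 oocytes of 21. Among the 37 tested these were 33, 16 and 21 (89.2%, 43.2% and 56.8%), beside 82.1%, 67.5% and 71.2% of all genes tested. In the kept T3 oocytes 8 genes had no count, all of them among the 23 listed as higher in >120 μm oocytes (34.8%, beside 20.8% of all 1039 genes so listed), and they were HOXD3, KDM5B, ZBTB17, ZBTB8B, ZNF148, ZNF174, ZNF618 and ZNF623. For 5 of these the T3 oocytes that were not kept had at least 1 count, so 3 genes (ZNF174, ZNF618 and ZNF623) had none in any of the 5.

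Some zeros fell in deep libraries on genes that were plentiful elsewhere. For each gene and kept oocyte the count expected from the pooled level in the other 10 oocytes was computed, and pairs with at least 10 expected counts were kept. Of 316 such pairs of the 39 genes 31 (9.81%) had a count of 0, beside 6314 of 93767 (6.73%) over all genes. By list they were 5 of 176 for genes listed as higher in DF oocytes (157 of 8686, 1.81%, over all genes so listed) and 26 of 140 for those listed as higher in >120 μm oocytes (18.6%, beside 10.5%). The zeros were unevenly placed, with 10 in T1.2, 7 in T3.4, 6 in T3.2, 4 in T1.1, 3 in T1.5, 1 in T1.3 and 0 in T1.6 and in all 4 T2 oocytes (0 of 109 pairs, beside 2.3% over all genes at T2). As shares of the pairs of an oocyte these were 34.5% in T1.2, 24.1% in T3.4, 20% in T3.2, 12.9% in T1.1, 9.38% in T1.5 and 3.12% in T1.3. Over all genes the shares followed the same order, at 16.4%, 15.4%, 9.99%, 9.77%, 7.26% and 3.51%.

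The zero with the most expected counts was ZNF518A in T1.5. After it came KDM3A (83.5) and KLF4 (81.5) in T1.2, ZNF131 (77.1) and ZNF804B (59.1) in T1.5 and ZNF691 (55.7) in T3.4. T1.5 had the largest total, 4894970 counts. Some genes had their highest CPM of all 15 oocytes in one of the smallest libraries. In T3.1 these were KDM3A (65 counts), ZBTB17 (25) and ZBTB49 (22), in T3.3 ZNF638 (285), ZNF280B (265), ZBTB10 (194), ZBTB38 (43), ZNF771 (19) and KDM5B (4), and in T3.5 ZNF692 (46) and ZNF131 (22).

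The spread between oocytes of a time point was measured as the SD of log2 CPM and as the biological coefficient of variation (BCV) of edgeR, read against its trend over all genes at the same abundance. The median SD within time points was 1.26 over the 37 genes and 1.105 over all 10198 genes tested. The median BCV stood at 0.998 of the trend, against 0.95 over all genes, and 18 of 37 genes (48.6%) lay above the trend, against 40.7%. Most even were ZBTB33 at 0.79 of its trend, ZNF106 at 0.80 and ZNF174 at 0.86. Least even were ZNF518A at 1.66, above 99.3% of all genes tested, ZNF131 at 1.345 and KLF4 at 1.29.

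**Figure D5:**
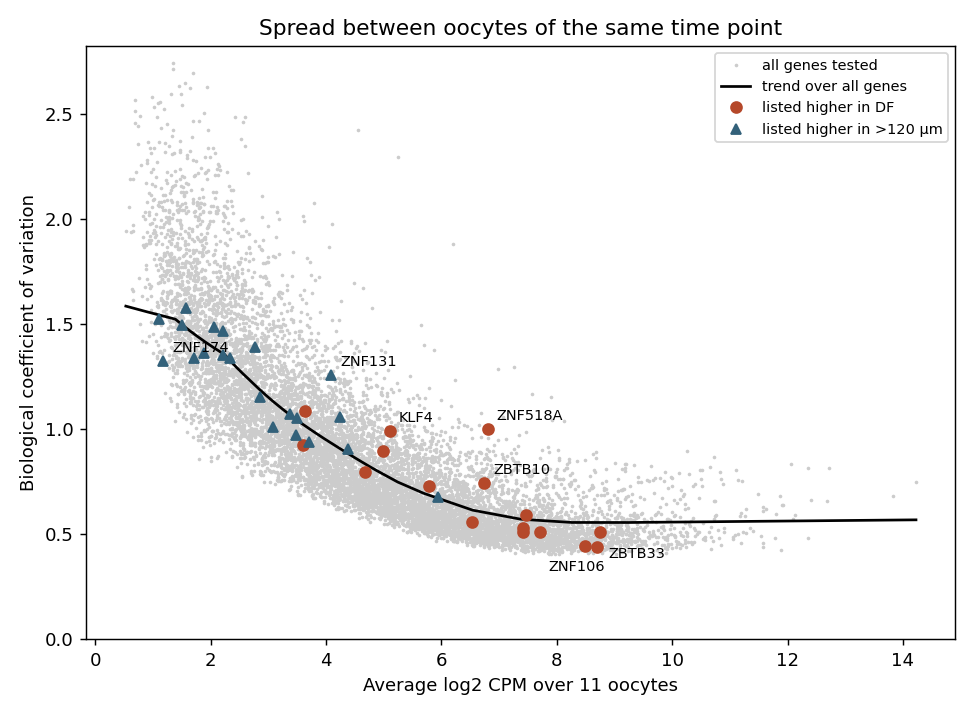
BCV between oocytes of the same time point (y axis) against average log2 CPM (x axis) for all 10198 genes tested (grey), their trend (line), 16 genes listed as higher in DF oocytes (circles) and 21 listed as higher in >120 μm oocytes (triangles). ZNF518A stands furthest above the line and ZBTB33 and ZNF106 lie below it.

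The T2 oocytes were the more alike. The SD of log2 CPM was larger among the 5 kept T1 oocytes than among the 4 T2 oocytes in 35 of 37 genes (94.6%), against 81.1% of all genes tested. For genes listed as higher in DF oocytes the share was 100% of members, beside 84.8% of all genes so listed. For genes listed as higher in >120 μm oocytes it was 90.5% of members tested, beside 83%. The median SD over the 37 genes was 1.4 at T1 and 0.53 at T2, beside 1.185 and 0.62 over all genes. KDM3A had SDs of 2.50 at T1 and 0.21 at T2, ZNF518A of 3.355 and 0.53, ZBTB10 of 2.12 and 0.55, and ZBTB33 of 0.58 and 0.25. The exceptions were ZNF174, with 0.95 at T1 and 1.06 at T2, and ZNF692, with 0.57 and 1.47, both of them genes of at most 16 counts in any kept oocyte.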

How the data were processed

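The authors trimmed reads with Trim Galore (0.6.6 in the submitters' processing notes), mapped them with HISAT2 to ARS-UCD1.2, and deposited raw counts per Ensembl gene from SeqMonk, without normalization. The annotation release, the strand setting and any removal of duplicates are not given in the sources used here. Each of the 15 columns was assigned by its name. The 11 oocytes kept by the study were the main set, with all 15 as an alternative.

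Differences were tested with edgeR (4.0.16, R 4.3.3) by the quasi-likelihood test, with the 3 time points in 1 model, TMM factors, filterByExpr (10198 genes) and Benjamini-Hochberg adjustment over all of them. SEs were taken from the fold change and the F statistic. Expected detection at equal depth was the exact hypergeometric value (scipy 1.17.1). Scripts were tested on simulated data. Alternatives were the likelihood ratio test, DESeq2 (1.42.0), other factors, filters and prior counts, a replicate block and each oocyte left out. The genes and lists were chosen with earlier results of these data known, and the analysis of zeros, the scaling by library size alone in the tests and the bounds with an oocyte left out were added after seeing the data. Values are given for each oocyte where a gene had an unadjusted p of 0.05 or less, was among the 4 highest or lowest in level or the 3 most or least even, or was a histone demethylase, KLF4, HOXD3, FOXN1, FOXJ3, ZBTB33 or ZBTB38. Others given by oocyte (ZNF280B at T2 and T1, ZNF804B, ZBTB10, ZBTB8OS and ZBTB17) were chosen after their values were seen. RefSeq names (ARS-UCD2.0) matched 38 of the 39 symbols and served only to place ZBTB8OS beside ZBTB8B. Oocytes larger than 120 μm and DNA methylation were not analysed here.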

Additional observations from a re-analysis of the deposited data

Results flagged for a closer look

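In 8 of 81 groups of 4 or 5 kept oocytes, the log2 CPM of 1 oocyte stood apart from the rest by Dixon's criterion at 95%. Chance gives about 1 in 20 for normally distributed values, which groups with tied values at 0 counts are not. The share over all genes tested was not computed, so 8 of 81 is not read as particular to these genes. At T1 these were ZBTB33 in T1.2 (7.27, the others between 8.36 and 8.75), ZNF618 in T1.5 (3.38, the others at 0.91 or below), and ZNF518A and ZNF804B in T1.5, both with 0 counts (-0.064), where the others were between 6.17 and 8.08 and between 2.92 and 3.67. At T2 they were ZBTB10 in T2.2 (7.67, the others between 6.51 and 6.63), ZNF292 in T2.4 (6.64, the others between 7.96 and 8.21), KDM3A in T2.3 (4.78, the others between 5.16 and 5.23) and ZNF16 in T2.4 (4.26, the others between 4.95 and 5.08). T1.5 was the oocyte standing apart in 3 of the 8.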

How the results depend on the processing

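The number of the 39 genes called was 0 in each comparison under the likelihood ratio test, RLE factors and both other low-count filters. It was also 0 with all 15 oocytes, library size alone, a replicate block and each T1 or T2 oocyte left out in turn. Over all genes tested, calls are given here for T2 and T1, T3 and T2, and T3 and T1 in turn. With no filter on low counts they numbered 234, 371 and 1 of 14321. With at least 10 counts in every oocyte they were 158, 214 and 0 of 4161, where 11 members were tested. They were 376, 316 and 0 of 10120 without T1.1, and 0, 403 and 15 of 10046 without T1.2. Library size alone gave 59 and RLE factors 17 of 10198 between T3 and T2, and the replicate block 1. DESeq2 called 1 between T3 and T2, ZNF148 (log2 fold change -6.83, adjusted p = 0.043), and an unadjusted p of 0.05 passed 3 between T3 and T2 and 4 between T3 and T1. Each oocyte came from a different animal, so the replicate number pairs nothing, and the replicate block gave 0 calls among these genes in each comparison. KLF4 between T3 and T1 was reversed without T3.4 (-0.70), and over the single oocytes left out it ranged from -0.70 to 3.57. Median detection at equal depth was 21.8 genes over 15 oocytes at 175263 counts and 35.0 over the 11 kept at 824854. The median SD within time points of the genes listed as higher in DF oocytes was 1.05, and 2.05 with all 15 oocytes. That of the genes listed as higher in >120 μm oocytes was 1.29, and 1.99 with a prior count of 0.5 and 0.925 with a prior count of 5. The zeros in deep libraries numbered 31 at 10 expected counts, 49 at 5 and 14 at 20, and 21 to 32 with 1 oocyte left out, the 21 without T1.2. Scaling by library size alone moved the median log2 fold change of all genes from -0.10 to -0.44 between T3 and T2, and that of the 37 genes from -1.11 to -1.45, and between T3 and T1 that of the 37 genes from -0.63 to -1.02. With 1 oocyte left out the median of the genes tested ranged from 0.002 to 0.32 between T2 and T1, from -2.95 to -0.98 between T3 and T2 and from -1.62 to -0.54 between T3 and T1, and the replicate block gave 0.90, -1.60 and -0.42. T3 rests on 2 kept oocytes, and genes of a few counts per library cannot be told from absent ones.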
